A study of Mus musculus with 12 samples.

Results

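DNA repair genes were followed in sorted mouse liver cancer organoid cells before and after 5-fluorouracil (5-FU). The 41 genes were taken from a list of DNA repair genes with 4 damage-signaling kinases. Its pathways were homologous recombination, Fanconi anemia, mismatch repair, base excision repair, nucleotide excision repair and bypass polymerases. The list was chosen with earlier results of these data known, so its counts beside those of all genes are descriptive. The 41 genes were matched by symbol to the 47069 Ensembl genes of the count table. All 41 were found and all 41 passed the filter on low counts, which left 16157 genes for testing. Organoids are small cultures that grow in a gel from single tumor cells, and these came from liver cancer of C57BL/6 mice with the genotype LGR5-DTRGFP+, in which the Lgr5 locus drives a diphtheria toxin receptor fused to green fluorescent protein (GFP). Cells of every group carried this allele, and living cells without the leukocyte marker CD45 were sorted by GFP into an LGR5+ and an LGR5- population. LGR5 is a Wnt pathway receptor that marks stem cells in several epithelia, and the study compared its carriers with the other tumor cells before and after chemotherapy. Each population was taken without treatment and after 5-FU, which gave 4 groups of 3 libraries each. The sample titles name treated cells only as such, and 5-FU is the treatment that the study's text gives for the sequenced cells. How many organoid lines or cultures stand behind the 12 libraries is not given in the sources used here, so P values measure the spread between these libraries, which may be technical.

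Cells keep separate repair systems for separate lesions. Homologous recombination copies an intact sister strand to mend a double-strand break, and the Fanconi anemia proteins open crosslinked DNA so that recombination can follow. Mismatch repair removes wrongly paired bases behind the replication fork, base excision repair begins with glycosylases that cut out single damaged bases, nucleotide excision repair removes bulky lesions, and bypass polymerases copy past lesions that stop the replicative enzymes. 5-FU blocks thymidylate synthesis, which lets uracil and fluorouracil enter DNA, where uracil glycosylases and mismatch repair act on them. Many recombination, Fanconi and mismatch repair genes are transcribed most strongly in S phase, whereas several nucleotide excision repair genes are known targets of p53.

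Counted reads per library ranged from 13750591 to 19323514, and a count of 3 reads, taken as the floor of detection, stood for 0.155 to 0.218 CPM (counts scaled to a common library size), for counting error only. Mitochondrial genes took 1.47% to 3.08% of the reads in 10 libraries and 6.93% and 6.44% in replicate 3 of the untreated and the 5-FU-treated LGR5- cells. Lgr5 itself did not separate the populations: its level before treatment was 28.8 ± 6.62 CPM (SD, n = 3) in the sorted LGR5- fraction against 25.7 ± 2.12 CPM in the LGR5+ one. After 5-FU it was 25.1 ± 9.49 CPM and 27 ± 0.195 CPM. The labels LGR5+ and LGR5- therefore rest on the sort and not on the Lgr5 reads. Among 10 hepatocyte markers, 6 (Ttr, Hnf4a, Serpina1a, Cps1, Tat and Fgb) had at most 3 reads in every library, and the list summed to 0.824 to 3.41 CPM, while 9 of 9 cholangiocyte markers were detected in every group and summed to 3720 to 5080 CPM in untreated and 6200 to 21200 CPM in treated libraries. The 8 alveolar type 2 markers were also detected in every group, and their sum was 3560 to 17500 CPM in untreated and 3100 to 6480 CPM in treated libraries. Singly, 7 of the 8 were fitted higher in LGR5+ and 6 in LGR5- cells after 5-FU, 3 and 2 passed as higher and 0 as lower. Of all tested genes 9.66% rose in LGR5+ and 8.3% in LGR5- cells. A list of 8 macrophage markers summed to 40.7 to 92.1 CPM and 101 to 184 CPM, with Adgre1, Csf1r, C1qa and C1qb too low to be tested. Fibroblast markers summed to 26.2 to 60.8 CPM and endothelial markers to 2.41 to 6.58 CPM. In each population 4 of 8 tested cholangiocyte and 2 of 4 tested macrophage markers passed as higher after 5-FU and 0 as lower. Of 2 tested fibroblast markers 1 passed as lower in each, where 6.37% and 7.11% of all genes fell. No hepatocyte or endothelial marker passed. The part of these lists in the results below was not tested.

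After 5-FU, most homologous recombination and Fanconi anemia genes on the list fell in both populations, as did 3 base excision repair genes, 1 mismatch repair gene and 1 damage-signaling kinase, and a single repair gene on the list, Xpc, rose. In LGR5+ cells 17 of the 41 genes fell and 1 rose by edgeR's quasi-likelihood test with Benjamini-Hochberg adjustment over all genes, where 6.37% of all tested genes fell and 9.66% rose. In LGR5- cells 20 fell and 1 rose, against 7.11% and 8.3% of all genes. The fall was shared: 16 genes passed the test as lower in both populations, against 4.35% of all genes, and these were Brca1, Rad51ap1, Rad54l, Rad54b, Palb2, Blm, Xrcc3, Brip1, Fanca, Fancb, Fancd2, Chek1, Pms2, Ung, Mbd4 and Neil3. Bard1 passed in LGR5+ cells alone and Chek2, Exo1, Msh3 and Parp1 in LGR5- cells alone, but the difference between the populations passed the test for none of them. Xpc rose in both, as did 6.59% of all genes, and 19 genes passed in neither population. Taken library by library, 26 genes in LGR5+ cells had all treated values below all untreated ones, against 20% of all genes, and 24 in LGR5- cells, against 13.4%. In 23 genes this held in both populations, against 9.2%. The reverse, all treated values above all untreated ones, held for Xpc and Polk in LGR5+ cells (22.3% of all genes) and for Xpc in LGR5- cells (13.7%). The median log2 fold change over the 41 was -0.81 in LGR5+ and -1.05 in LGR5- cells, against -0.02 and -0.05 over all tested genes. Because these are pooled cells, fewer cells expressing a gene and less RNA per expressing cell cannot be told apart.

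The counts depended on single libraries. Leaving out 1 library at a time, between 3 and 22 of the 41 genes passed in LGR5+ cells and between 7 and 25 in LGR5- cells. The LGR5+ count fell from 18 to 8 without untreated replicate 1, 7 without untreated replicate 3, 4 without 5-FU replicate 2 and 3 without 5-FU replicate 3. Among all genes the same fits called 1988, 1586, 1452 and 1373, down from 2590. Without 5-FU replicate 2 or 3, the share of the 41 that passed in either direction was near that of all genes. The LGR5- count fell from 21 to 11 without untreated replicate 1, 7 without 5-FU replicate 2 and 9 without 5-FU replicate 3. Among all genes these LGR5- fits called 1562, 1649 and 1792, down from 2489. No gene that passed changed its direction in any of these fits. Rad54l, Chek1 and Xpc passed in all 6 such fits of both populations.

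**Figure D1:**
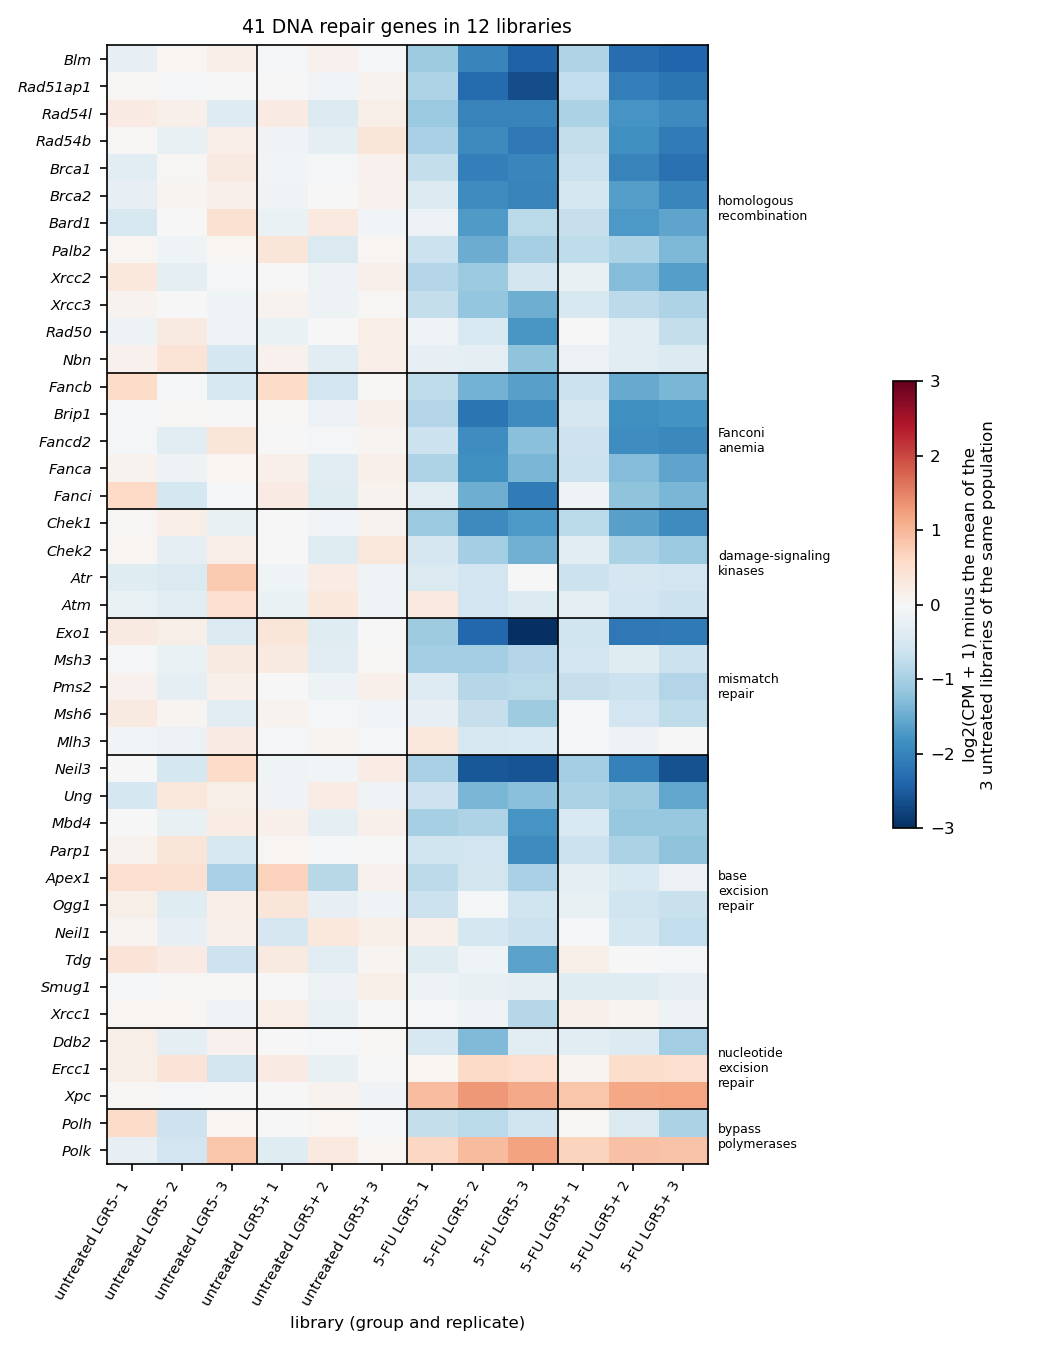
Rows are the 41 genes by pathway and columns the 12 libraries; color gives log2(CPM + 1) minus the mean of the 3 untreated libraries of the same population, on a scale that ends at -3 and 3. Most recombination and Fanconi rows are blue in the treated libraries, paler in replicate 1 of each population, and Rad50 is near 0 in LGR5+ replicate 1, while Xpc and Polk turn red.

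By pathway, the genes that fell were divided as follows. In LGR5+ cells 8 of 12 homologous recombination genes and 4 of 5 Fanconi anemia genes fell, against 1 of 4 damage-signaling kinases, 1 of 5 mismatch repair genes, 3 of 10 base excision repair genes, 0 of 3 nucleotide excision repair genes and 0 of 2 bypass polymerases. In LGR5- cells the same counts were 7 of 12, 4 of 5, 2 of 4, 3 of 5, 4 of 10, 0 of 3 and 0 of 2. At an unadjusted P under 0.05, 24 of the 41 genes were lower in LGR5+ and 27 in LGR5- cells, against 13.9% and 14.7% of all genes, and 2 were higher in each, against 16.1% and 14%. By this looser threshold 1 nucleotide excision repair gene, Ddb2, was lower in each population, and no bypass polymerase was lower in LGR5+ cells and 1, Polh, in LGR5- cells. The median log2 fold changes were lowest for recombination, -1.41 and -1.24 in LGR5+ and LGR5- cells, and for Fanconi genes, -1.37 and -1.57. Next were the kinases at -0.72 and -0.74, mismatch repair at -0.58 and -0.75, and base excision repair at -0.54 and -0.83. The order of these next pathways differed between the populations and from that of the shares that fell. Nucleotide excision repair stood at 0.39 and 0.35, and the bypass pair at 0.15 and -0.13. Differences between pathways were not tested, since each list is short and its genes are not replicates. Of the genes at an unadjusted P under 0.05, 10 of the 41 in LGR5+ and 11 in LGR5- cells changed by more than 1.5 on the log2 scale, where 7.23% and 7% of all genes did.

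**Figure D2:**
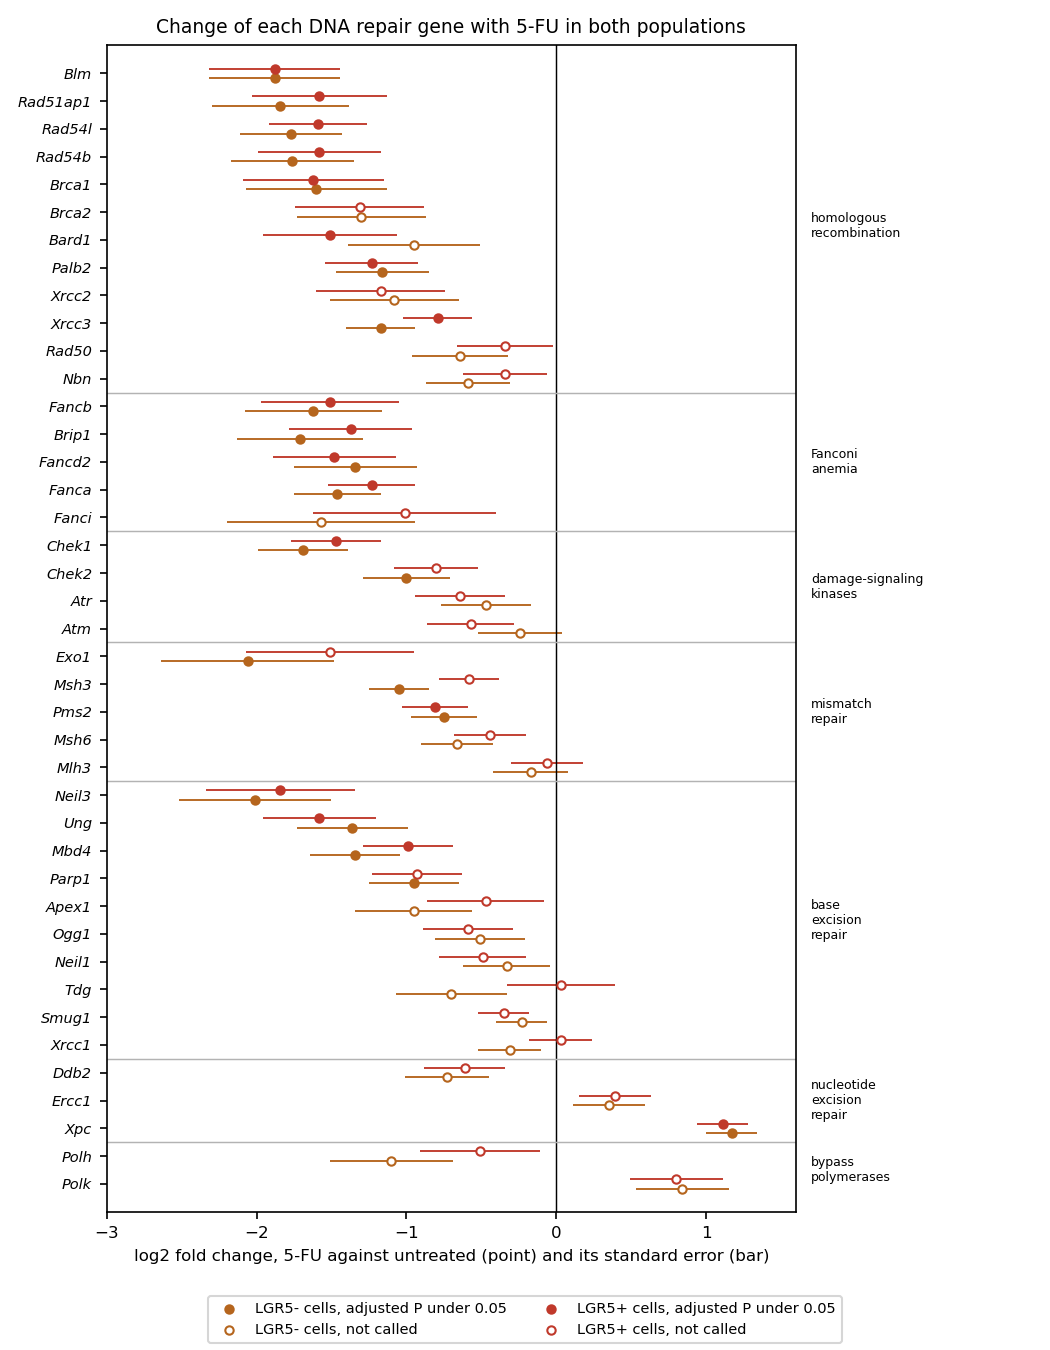
Points give the log2 fold change of each gene, 5-FU against untreated, with bars of 1 standard error; red is LGR5+, brown LGR5-, and filled points passed at an adjusted P under 0.05. Recombination and Fanconi genes lie left of 0 in both populations, while Xpc, Ercc1 and Polk lie to the right.

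Letters of the kind bound by E2F factors, which drive S phase genes, stood in 8 promoter windows, and short stretches of 4 are shown. These 4 lie outside any annotated exon, and the stretches of Apex1, Blm, Msh3 and Ercc1 do not. Of the genes shown, Fancb fell in both populations, Bard1 in LGR5+ and Chek2 in LGR5- cells, and Brca2 passed in neither. Of those not shown, Blm fell in both populations and Msh3 in LGR5- cells, and Apex1 and Ercc1 passed in neither. The sequences are from RefSeq on GRCm38.p6, 5′ to 3′ on the gene's strand, each within 250 bases before an annotated start, outside any annotated exon, with the E2F letters in capitals. The stretch of Fancb lies at chrX:164980398-164980448 (+), that of Chek2 at chr5:110839809-110839859 (+), that of Bard1 at chr1:71103152-71103202 (-) and that of Brca2 at chr5:150522431-150522481 (+).
Fancb: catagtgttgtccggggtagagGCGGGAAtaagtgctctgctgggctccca
Chek2: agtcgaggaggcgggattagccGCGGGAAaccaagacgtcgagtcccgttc
Bard1: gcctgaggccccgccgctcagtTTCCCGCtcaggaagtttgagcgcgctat
Brca2: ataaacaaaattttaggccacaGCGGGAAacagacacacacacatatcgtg
The search used TTCCCGC and TTCGCGC together with TTGCCGC and TTGGCGC on both strands, and 33 of the 41 genes had a promoter entry, with 36 windows in all. E2F letters stood in 8 of the 36 windows (22.2%) and in 7.89% of all 32851 promoter windows of the same length. The CCAAT box, CCAAT on either strand, which can overlap TTGGCGC, was in 21 of 36 (58.3%) against 33.8% of all, and the letters TTTGAA, an element known from promoters of late cell cycle genes, were in 1 (2.78%) against 16%. Among windows of the genes that fell in both populations, 2 of 15 (13.3%) held E2F letters and 11 of 15 (73.3%) a CCAAT box. Among windows of the genes that fell in 1 population, 3 of 4 (75%) held E2F letters and 1 of 4 (25%) a CCAAT box. Windows of genes that fell in neither held them in 3 of 17 (17.6%) and 9 of 17 (52.9%). A match of letters is a description and not a binding site.

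Homologous recombination gave the largest group of falling genes. Blm encodes the helicase that dissolves recombination intermediates and lies on chr7:80454733-80535119 of GRCm38. In LGR5+ cells Blm stood at 17.2, 19.8 and 17.2 CPM untreated and 9.21, 2.91 and 2.63 CPM after 5-FU. LGR5- cells held 17.9, 22.3 and 25 CPM of it untreated and 9.76, 4.68 and 3.22 CPM treated. All 6 treated libraries lay below all 6 untreated ones, with replicate 1 the highest treated library of each population. The fall was 3.67-fold in both (LGR5+ log2 fold change -1.88, SE 0.44, adjusted P = 0.00996; LGR5- log2 fold change -1.88, SE 0.44, adjusted P = 0.0105).

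Rad54l, a motor protein that moves along DNA during strand exchange, is on chr4:116094264-116123690. Its levels in LGR5+ cells were 33.8, 21.1 and 32.5 CPM untreated and 14.4, 7.64 and 6.89 CPM treated. In LGR5- cells they were 32.2, 30.0 and 20.6 CPM and 12.1, 6.02 and 6.01 CPM. The groups did not overlap, and the fall was 3.02-fold in LGR5+ cells (log2 fold change -1.59, SE 0.33, adjusted P = 0.0044) and 3.42-fold in LGR5- cells (log2 fold change -1.77, SE 0.34, adjusted P = 0.00298). Its exons share 15.4% of their bases with Lrrc41 on the opposite strand, and the strand setting of the counting is not given in the sources used here. Its relative Rad54b (chr4:11558922-11615805) read 16.2, 14.4 and 22.8 CPM in untreated and 10.3, 4.18 and 3.33 CPM in treated LGR5+ cells. In LGR5- cells Rad54b read 17.9, 15 and 20.2 CPM and 8.41, 3.92 and 3.22 CPM. Both populations separated without overlap (log2 fold change -1.58, SE 0.41, adjusted P = 0.0156 in LGR5+; log2 fold change -1.76, SE 0.41, adjusted P = 0.00976 in LGR5- cells), but 35.9% of its exon bases are shared, mainly with Fsbp on the same strand, so reads of the 2 genes may be split.

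Rad51ap1, a DNA-binding protein that promotes strand exchange, is on chr6:126923050-126939587. It was steady in untreated cells, at 37.8, 35.9 and 40.8 CPM in LGR5+ and 40.1, 37.9 and 38.7 CPM in LGR5- cells. After 5-FU it read 22.3, 8.35 and 7.59 CPM and 20.1, 7.02 and 5.35 CPM. Every treated library was below every untreated one, and replicate 1 stood far above replicates 2 and 3. The log2 fold changes were -1.58 (SE 0.45, adjusted P = 0.0289) in LGR5+ and -1.84 (SE 0.46, adjusted P = 0.0151) in LGR5- cells by edgeR's test.

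Of the BRCA1 complex, Brca1 and Palb2 passed in both populations, Bard1 in 1 and Brca2 in neither. Brca1 (chr11:101488764-101551955), the ubiquitin ligase that licenses end resection and recruits PALB2, had 14.9, 15.3 and 17.5 CPM in untreated and 9.77, 3.19 and 2.57 CPM in treated LGR5+ cells. LGR5- cells had 13.2, 17.2 and 20.5 CPM and 9.82, 3.28 and 3.59 CPM. Again no treated library reached an untreated one (log2 fold change -1.62, SE 0.47, adjusted P = 0.0316 in LGR5+; log2 fold change -1.60, SE 0.47, adjusted P = 0.0341 in LGR5- cells), but the call held in only 1 of the 6 fits that left out a library in each population. Bard1, the ligase partner of BRCA1, was at 7.56, 10.9 and 8.18 CPM in untreated and 5.05, 1.98 and 2.28 CPM in treated LGR5+ cells. In LGR5- cells its groups overlapped, with 5.87, 8.6 and 12.1 CPM untreated and 7.41, 1.93 and 4.47 CPM treated. It passed in LGR5+ cells (log2 fold change -1.51, SE 0.45, adjusted P = 0.0343) and not in LGR5- cells (log2 fold change -0.95, SE 0.44, adjusted P = 0.174); the difference of the responses was -0.56 with a 95% interval of -1.79 to 0.67. Palb2, the bridge between BRCA1 and BRCA2, had 11.2, 6.02 and 8.77 CPM in untreated and 4.55, 3.85 and 2.69 CPM in treated LGR5+ cells. In LGR5- cells Palb2 had 10.1, 8.82 and 10.2 CPM and 5.88, 2.81 and 4.32 CPM. It fell by 1.23 (SE 0.31) and 1.16 (SE 0.31) on the log2 scale, with adjusted P = 0.0141 and 0.0199 by edgeR's test. Brca2, a tumor suppressor that acts in strand exchange, narrowly missed the threshold although its groups did not overlap. Its values were 29.4, 31.9 and 34.8 CPM in untreated and 21.7, 9.51 and 7.48 CPM in treated LGR5+ cells, and 25.8, 32.9 and 34.5 CPM and 23, 7.66 and 6.96 CPM in LGR5- cells. The fitted log2 fold changes were -1.31 (SE 0.43, adjusted P = 0.0551) and -1.30 (SE 0.43, adjusted P = 0.0587).

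Of the recombination genes Xrcc3 and Xrcc2, the first passed and the second did not. Xrcc3 had 14.7, 12.2 and 14.1 CPM in untreated and 9.43, 7.42 and 6.72 CPM in treated LGR5+ cells. LGR5- cells had 18.7, 17.4 and 15.8 CPM and 10.2, 7.14 and 5.57 CPM. No treated library overlapped an untreated one, and the changes were moderate (log2 fold change -0.79, SE 0.23, adjusted P = 0.0276 in LGR5+; log2 fold change -1.17, SE 0.23, adjusted P = 0.00346 in LGR5- cells). Xrcc2 ranged over the 12 libraries from 1.11 to 7.32 CPM, without overlap within either population, and had log2 fold changes of -1.17 (adjusted P = 0.0791) and -1.08 (adjusted P = 0.107). Rad50 and Nbn, of the complex that senses and trims broken ends, moved least in this pathway. Per kb of exon, both were among the most abundant repair genes on the list. Rad50 ranged from 24.5 to 101 CPM and Nbn from 9.16 to 29.9 CPM, treated and untreated libraries overlapped in both populations, and both had a log2 fold change of -0.34 in LGR5+ cells. In LGR5- cells the log2 fold changes were -0.64 for Rad50 and -0.59 for Nbn, and the 4 tests gave adjusted P from 0.185 to 0.519 by edgeR's test.

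The Fanconi anemia genes followed recombination. Fanca, a scaffold of the core complex, is on chr8:123268300-123318576. LGR5+ cells held 21.5, 15.3 and 21.5 CPM untreated and 11.9, 7.2 and 5.72 CPM treated. LGR5- cells held 21.3, 17.5 and 20.5 CPM and 9.82, 4.74 and 6.96 CPM. The groups stood apart, with falls of 2.35-fold (log2 fold change -1.23, SE 0.29, adjusted P = 0.00963) and 2.76-fold (log2 fold change -1.46, SE 0.29, adjusted P = 0.00417); 10.5% of its exon bases are shared with Zfp276 on the opposite strand. Fancb, an X-linked core complex subunit, was low, with 9.29, 3.74 and 6.27 CPM in untreated and 3.54, 1.48 and 1.75 CPM in treated LGR5+ cells. In LGR5- cells Fancb was at 9.74, 6.08 and 4.27 CPM and 3.35, 1.75 and 1.39 CPM. Its highest treated library, 3.54 CPM, lay just under its lowest untreated one, 3.74 CPM, and both comparisons passed (log2 fold change -1.51, SE 0.46, adjusted P = 0.0366 in LGR5+; log2 fold change -1.62, SE 0.46, adjusted P = 0.0284 in LGR5- cells).

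Fancd2 (chr6:113531682-113597017), which the core complex marks with ubiquitin at a crosslink, had 15.6, 14.9 and 16.5 CPM in untreated and 9.88, 3.57 and 3.39 CPM in treated LGR5+ cells. In LGR5- cells Fancd2 had 12.7, 10.1 and 16.9 CPM and 8.0, 2.81 and 4.84 CPM. The highest treated library of both populations was replicate 1, and treated and untreated libraries did not overlap (log2 fold change -1.48, SE 0.41, adjusted P = 0.0218 in LGR5+; log2 fold change -1.34, SE 0.41, adjusted P = 0.0384 in LGR5- cells). Fanci, its partner, was scarce at 0.366 to 7.87 CPM, overlapped between groups in both populations, and did not pass (-1.01, SE 0.61, adjusted P = 0.30 in LGR5+; -1.57, SE 0.63, adjusted P = 0.113 in LGR5- cells); 16% of its exon bases are shared with Polg. Brip1, a helicase that binds BRCA1, had 15.6, 13.3 and 16.9 CPM in untreated and 10.5, 3.52 and 3.68 CPM in treated LGR5+ cells. In LGR5- cells Brip1 had 15.6, 16.8 and 16.5 CPM and 8.41, 2.81 and 3.66 CPM. Its groups did not overlap (log2 fold change -1.37, SE 0.41, adjusted P = 0.0365 in LGR5+; log2 fold change -1.71, SE 0.42, adjusted P = 0.0135 in LGR5- cells).

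**Figure D3:**
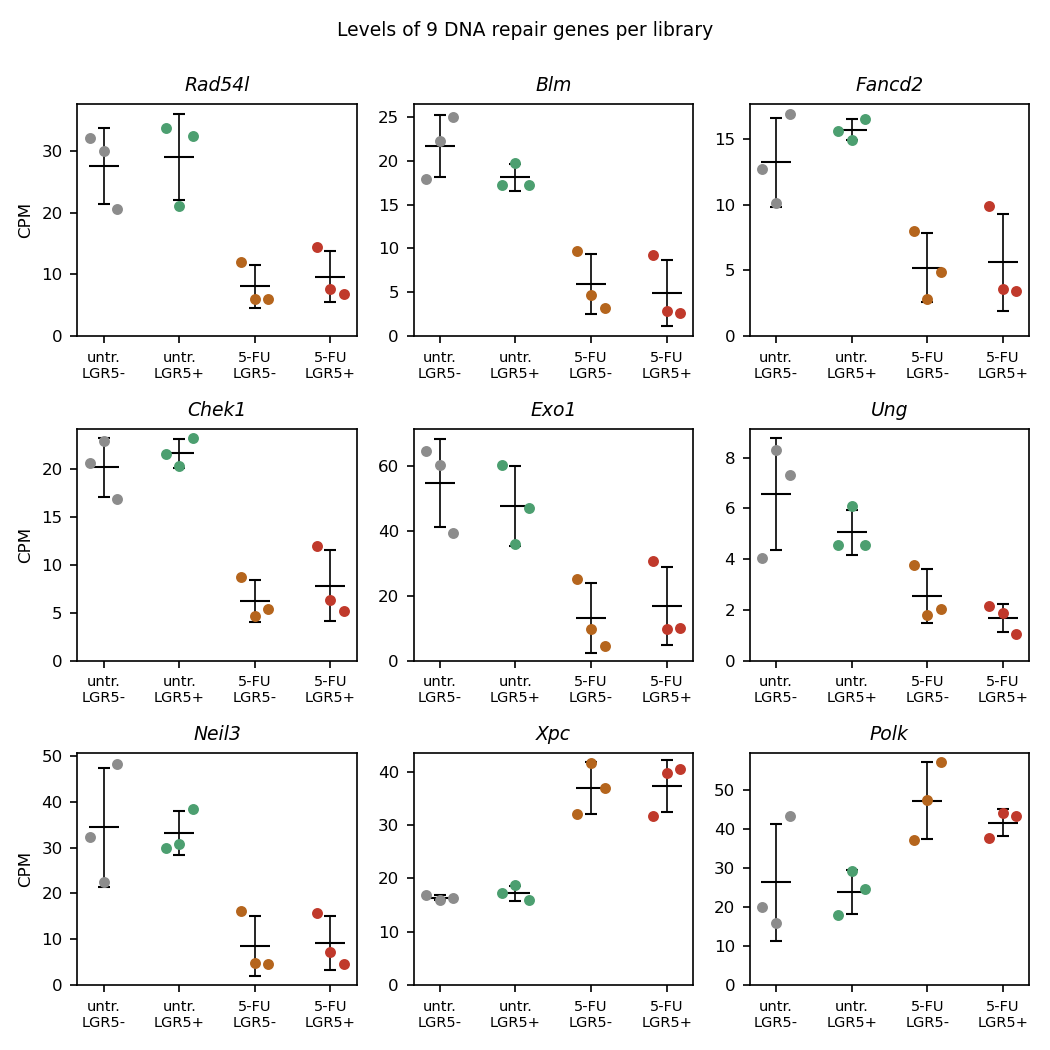
Each panel plots the CPM of 1 gene in the 12 libraries, with replicates 1 to 3 from left to right in each group, a line at the mean and bars of 1 SD. The first 7 genes are lower in all treated libraries, with replicate 1 the highest treated library; Xpc is higher in all treated libraries, and Polk overlaps in LGR5- cells.

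Of the damage-signaling kinases, Chek1 fell most. CHK1, its product, holds back the cell cycle when replication stalls, and the gene lies on chr9:36708482-36727065. LGR5+ cells had 21.6, 20.3 and 23.3 CPM untreated and 12, 6.38 and 5.14 CPM treated. LGR5- cells had 20.7, 23 and 16.9 CPM and 8.7, 4.62 and 5.35 CPM. All treated libraries were below all untreated ones, with falls of 2.76-fold (log2 fold change -1.47, SE 0.30, adjusted P = 0.00383) and 3.24-fold (log2 fold change -1.69, SE 0.30, adjusted P = 0.00203). Chek2, the kinase downstream of ATM, had 28, 21.4 and 35 CPM in untreated and 22.1, 13.9 and 12.3 CPM in treated LGR5+ cells, where the groups overlapped. In LGR5- cells Chek2 had 26, 20.6 and 28.9 CPM and 17.3, 11.8 and 8.5 CPM without overlap. It passed in LGR5- cells (log2 fold change -1.0, SE 0.29, adjusted P = 0.028) and missed the threshold in LGR5+ cells (log2 fold change -0.80, SE 0.28, adjusted P = 0.0673). The apical kinases Atm and Atr, which respond to broken and to single-stranded DNA, did not pass. Atm ranged from 7.36 to 20.8 CPM and Atr from 7.75 to 28.3 CPM over the 12 libraries, with log2 fold changes of -0.57 and -0.64 in LGR5+ cells, where their groups did not overlap, and -0.24 and -0.47 in LGR5- cells, where they did. Without untreated LGR5- replicate 3, which held the highest value of both genes, the LGR5- fold changes were 0.08 and 0.07.

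In mismatch repair 1 gene passed as lower in LGR5+ and 3 in LGR5- cells. Exo1, the exonuclease that removes the mismatched strand, is on chr1:175880581-175913489. LGR5+ cells had 60.3, 35.8 and 46.8 CPM untreated and 30.5, 9.84 and 9.93 CPM treated. LGR5- cells had 64.4, 60.3 and 39.2 CPM and 25, 9.71 and 4.4 CPM. No treated library reached an untreated one, and the fall in LGR5- cells, 4.17-fold, was the largest of the 41 genes in either population (log2 fold change -2.06, SE 0.58, adjusted P = 0.0315), while LGR5+ cells missed the threshold with a larger error than most genes (log2 fold change -1.51, SE 0.56, adjusted P = 0.0938).

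Msh3, which recognises insertion and deletion loops, differed less between libraries. It read 21.4, 14.1 and 18.3 CPM in untreated and 11.5, 13.6 and 10.9 CPM in treated LGR5+ cells. In LGR5- cells it read 21.7, 19.5 and 27.4 CPM and 10.7, 10.4 and 11.9 CPM. It fell in LGR5- cells (log2 fold change -1.05, SE 0.20, adjusted P = 0.00308), and in LGR5+ cells it missed the threshold (log2 fold change -0.58, SE 0.20, adjusted P = 0.0621) although the groups did not overlap. Pms2, an endonuclease subunit that acts after recognition, read 13.4, 12 and 15 CPM in untreated and 7.97, 8.24 and 6.83 CPM in treated LGR5+ cells. In LGR5- cells Pms2 read 13.3, 9.7 and 13.6 CPM and 9.05, 6.26 and 6.45 CPM. It fell in both populations without overlap (log2 fold change -0.81, SE 0.22, adjusted P = 0.0187 in LGR5+; log2 fold change -0.75, SE 0.22, adjusted P = 0.0305 in LGR5- cells); 5.9% of its exon bases are shared with other genes. Msh6, which recognises single mismatches, was the most abundant of the group per kb of exon and ranged from 21.0 to 55.3 CPM. It did not pass (log2 fold change -0.44, SE 0.24, adjusted P = 0.242 in LGR5+ and -0.66, SE 0.24, adjusted P = 0.0769 in LGR5- cells). Mlh3, at 6.67 to 12.6 CPM, had log2 fold changes of -0.06 (SE 0.24) and -0.17 (SE 0.25), neither larger than its error.

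Base excision repair held genes that fell and genes that did not, and the uracil glycosylases were among both. Ung, the main enzyme that removes uracil from DNA, is on chr5:114130386-114139323. It was low, with 4.56, 6.08 and 4.54 CPM in untreated and 2.13, 1.87 and 1.05 CPM in treated LGR5+ cells. In LGR5- cells it had 4.06, 8.28 and 7.32 CPM and 3.76, 1.81 and 2.05 CPM. All treated libraries were below all untreated ones, with falls of 2.99-fold (log2 fold change -1.58, SE 0.38, adjusted P = 0.0113) and 2.57-fold (log2 fold change -1.36, SE 0.37, adjusted P = 0.0239), on 18 to 151 reads a library.

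Mbd4, a glycosylase for thymine or uracil opposite guanine, had 13, 9.33 and 13.1 CPM in untreated and 8.26, 4.78 and 4.79 CPM in treated LGR5+ cells. In LGR5- cells Mbd4 had 12.6, 10.7 and 15 CPM and 5.88, 6.2 and 3.0 CPM. Its groups did not overlap, and it fell in both (log2 fold change -0.99, SE 0.30, adjusted P = 0.0345 in LGR5+; log2 fold change -1.34, SE 0.30, adjusted P = 0.0079 in LGR5- cells). Smug1, a second uracil glycosylase that also removes fluorouracil, was steadier, with 14, 12.5 and 15.9 CPM in untreated and 10.7, 10.8 and 11.7 CPM in treated LGR5+ cells. In LGR5- cells Smug1 had 11.9, 12.8 and 12.8 CPM and 11.2, 10.6 and 10.1 CPM. Its treated libraries were all slightly below its untreated ones, but the change was small and did not pass, with a 95% interval of -0.68 to -0.02 in LGR5+ cells (log2 fold change -0.35, SE 0.17, adjusted P = 0.179) and -0.56 to 0.11 in LGR5- cells (log2 fold change -0.23, SE 0.17, adjusted P = 0.414). Tdg, a thymine and fluorouracil glycosylase, had 14.7, 9.33 and 12.8 CPM in untreated and 13.8, 12.1 and 11.6 CPM in treated LGR5+ cells, which overlapped. In LGR5- cells Tdg had 14.2, 12.8 and 6.66 CPM and 8.05, 9.65 and 2.86 CPM, with treated replicate 3 the lowest of all. It did not pass in either (log2 fold change 0.03, SE 0.36, adjusted P = 0.967 in LGR5+; log2 fold change -0.70, SE 0.37, adjusted P = 0.226 in LGR5- cells), and its LGR5+ sign turned with library size scaling alone.

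Among glycosylases for oxidized bases, Neil3, which also unhooks crosslinks, fell and its relatives did not. Neil3 (chr8:53586867-53639065) had 29.9, 30.7 and 38.5 CPM in untreated and 15.8, 7.31 and 4.56 CPM in treated LGR5+ cells. In LGR5- cells it had 32.4, 22.5 and 48.3 CPM and 16.1, 4.8 and 4.62 CPM. No treated library reached an untreated one (log2 fold change -1.84, SE 0.50, adjusted P = 0.0243 in LGR5+; log2 fold change -2.01, SE 0.51, adjusted P = 0.0174 in LGR5- cells). Neil1, at 7.47 to 18.3 CPM, and Ogg1, at 3.35 to 8.83 CPM, which shares 10.6% of its exon bases with Camk1, overlapped between groups, with log2 fold changes from -0.59 to -0.33 and adjusted P from 0.205 to 0.499. The downstream genes differed too. Parp1, which marks strand breaks with ADP-ribose and was the most abundant of the 41 per kb of exon, had 129, 118 and 125 CPM in untreated and 78.5, 64.2 and 53.3 CPM in treated LGR5+ cells. In LGR5- cells Parp1 had 127, 151 and 83.8 CPM and 77.7, 78 and 31.1 CPM. The groups did not overlap, and nearly equal changes fell on either side of the threshold (log2 fold change -0.93, SE 0.30, adjusted P = 0.0511 in LGR5+; log2 fold change -0.95, SE 0.30, adjusted P = 0.0466 in LGR5- cells). Apex1, the abasic site endonuclease, ranged from 10.7 to 32.6 CPM and did not pass (-0.47, SE 0.39 in LGR5+; -0.95, SE 0.39 in LGR5- cells, adjusted P = 0.462 and 0.121), and 61.7% of its exon bases are shared with Pip4p1 on the opposite strand. Xrcc1, the scaffold for ligation, stayed between 26.7 and 56.2 CPM, with log2 fold changes of 0.03 (SE 0.21) and -0.31 (SE 0.21).

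In nucleotide excision repair 1 of 3 genes rose after 5-FU, and neither bypass polymerase passed. Xpc, which recognises helix distortion, is on chr6:91489305-91515888. It read 17.2, 18.7 and 15.9 CPM in untreated and 31.7, 39.7 and 40.5 CPM in treated LGR5+ cells. In LGR5- cells it read 16.9, 15.9 and 16.3 CPM and 32, 41.7 and 36.9 CPM. The treated libraries, 31.7 to 41.7 CPM, lay well above the untreated ones, 15.9 to 18.7 CPM, and the rise was 2.16-fold (log2 fold change 1.11, SE 0.17, adjusted P = 0.000389) and 2.25-fold (log2 fold change 1.17, SE 0.17, adjusted P = 0.000351).

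Ddb2, which finds ultraviolet lesions, was at 15.7 to 16.5 CPM in untreated and 7.30 to 12.4 CPM in treated LGR5+ cells, and at 12.1 to 17.1 CPM and 5.44 to 11.6 CPM in LGR5- cells. Its groups did not overlap within a population but it missed the threshold (-0.61, SE 0.27, adjusted P = 0.15; -0.73, SE 0.28, adjusted P = 0.0892), and 23.8% of its exon bases are shared with Acp2. Ercc1, a subunit of the nuclease that cuts the damaged strand, overlapped between groups over its range of 25.0 to 56.2 CPM (0.39, SE 0.24 in LGR5+; 0.35, SE 0.24 in LGR5- cells, adjusted P = 0.316 and 0.368). Polk, a bypass polymerase, had 17.9, 29.2 and 24.7 CPM in untreated and 37.7, 44 and 43.2 CPM in treated LGR5+ cells, with no overlap. In LGR5- cells it had 19.9, 15.8 and 43.3 CPM and 37.2, 47.4 and 57 CPM, where untreated replicate 3 reached into the treated range. Polk did not pass (log2 fold change 0.80, SE 0.31, adjusted P = 0.0961 in LGR5+; log2 fold change 0.84, SE 0.31, adjusted P = 0.0834 in LGR5- cells). Polh, which copies past ultraviolet dimers and was among the lowest of the 41 per kb of exon, ranged from 1.52 to 5.45 CPM with log2 fold changes of -0.51 (SE 0.40) and -1.10 (SE 0.41, adjusted P = 0.0909).

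In recombination and Fanconi genes, replicate 1 of the treated cells lay nearer to the untreated cells than replicates 2 and 3. Of all 41 genes, replicate 1 was the highest treated library for 32 in LGR5+ and 28 in LGR5- cells. Among the 16 genes that fell in both populations, replicate 1 was the highest treated library for 15 in LGR5+ and 15 in LGR5- cells. As a median over the 12 recombination genes, log2(CPM + 1) stood 0.67 below the untreated mean in LGR5+ replicate 1 and 1.68 and 1.77 below it in replicates 2 and 3. In LGR5- cells the same differences were 0.71, 1.79 and 1.84. Not every pathway had this order: the LGR5- base excision medians were -0.60, -0.54 and -1.12 in replicates 1, 2 and 3, and the LGR5+ mismatch repair medians -0.58, -0.57 and -0.76. Without replicate 1, the recombination median of the fitted log2 fold change was -1.99 in LGR5+ and -1.79 in LGR5- cells, and the Fanconi median -1.98 and -2.08. A list of 25 cell cycle genes moved in the same libraries, with median differences of -0.68, -1.70 and -1.87 in the treated LGR5+ replicates. The treated LGR5- replicates stood at -1.05, -1.78 and -2.40. In the test across all genes, 16 of these 25 fell in LGR5+ and 23 in LGR5- cells, against 6.37% and 7.11% of all genes. Mki67, the proliferation antigen, ran from 115 to 194 CPM in untreated and from 21.4 to 63.9 CPM in treated LGR5+ cells, and from 119 to 178 CPM and from 21.5 to 78.1 CPM in LGR5- cells. It fell in both (-2.05, SE 0.47, adjusted P = 0.00874 in LGR5+; -1.75, SE 0.46, adjusted P = 0.0209 in LGR5- cells). A list of 19 p53 targets varied less between treated replicates, with medians of 1.38, 1.69 and 1.53 in the LGR5+ replicates, and 1.36, 1.86 and 1.69 in those of LGR5- cells. In each population 17 of the 19 rose, against 9.66% of all genes in LGR5+ and 8.3% in LGR5- cells. Cdkn1a, the cell cycle inhibitor of that list, rose by 1.72 (SE 0.24, adjusted P = 0.000271) and 1.89 (SE 0.25, adjusted P = 0.000182) on the log2 scale by edgeR's test. The part of proliferation or p53 in the repair gene changes was not tested.

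**Figure D4:**
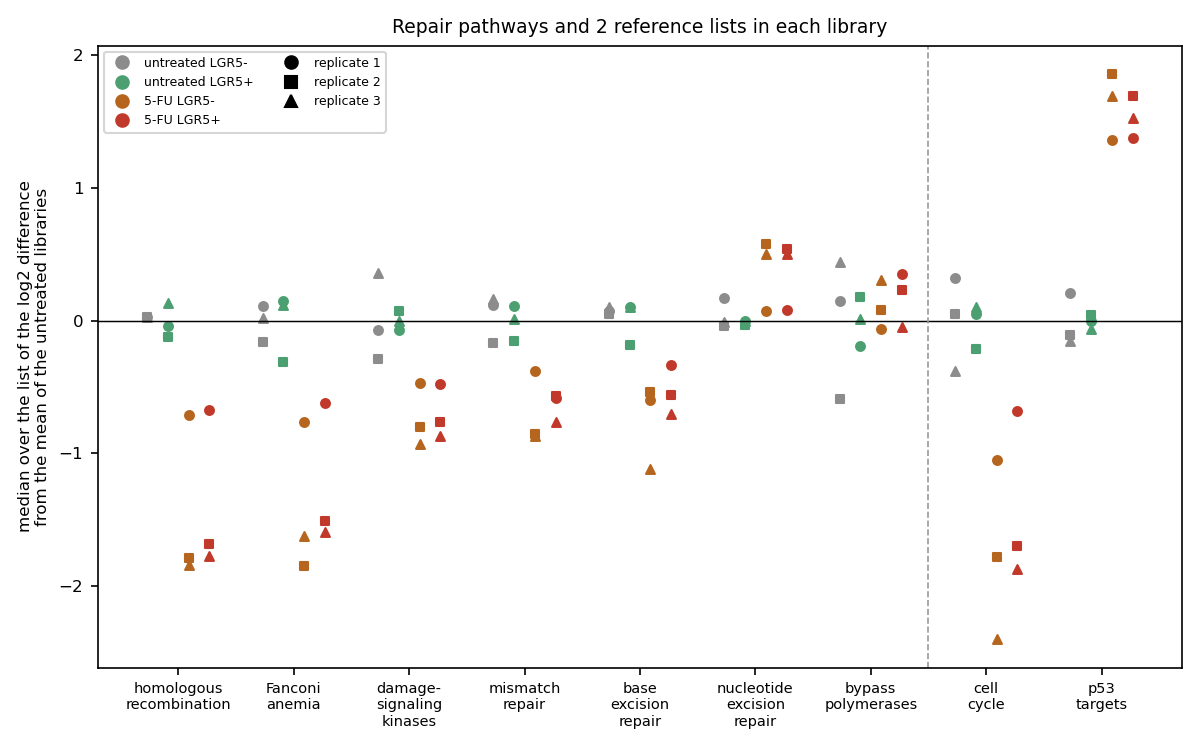
Points give, for each library, the median over a gene list of log2(CPM + 1) minus the untreated mean of the same population; color is the group and shape the replicate. Treated replicate 1 (circles) lies near -0.7 for recombination where replicates 2 and 3 lie from -1.68 to -1.84, and the cell cycle list spreads in the same way.

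The genes also differed in abundance. Per kb of merged exon, Parp1 led in untreated cells with means of 22.8 CPM per kb in LGR5- and 23.4 CPM per kb in LGR5+ cells. Apex1 stood at 17.4 and 15.2, Rad50 at 15.8 and 15.4, Ercc1 at 12.5 and 11.2 and Msh6 at 10.4 and 11.8 CPM per kb, and their order was not the same in the populations. The lowest levels were those of Polh, with 0.608 and 0.668 CPM per kb, and Atr, with 0.736 and 0.542 CPM per kb. Merged exons count rarely used ones as well, which lowers the value per kb of genes with long annotations such as Atr, with 23.6 kb.

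No difference between LGR5+ and LGR5- cells passed the test in any of the 41 genes. In untreated cells 0 of 41 passed by edgeR's test, 0 at an unadjusted P under 0.05 and 0 by DESeq2, where 0% of all genes passed the adjusted and 1.32% the unadjusted threshold. The fitted log2 differences, LGR5+ minus LGR5-, ran from -0.44 to 0.26. In 1 gene, Xrcc3, all untreated LGR5+ libraries lay below all untreated LGR5- libraries, as in 2.57% of all genes, with a difference of log2 difference -0.34, SE 0.22, adjusted P = 1. After 5-FU 0 of 41 passed by edgeR's test, as did 0% of all genes, and 0 by DESeq2, which called 75 genes in all. At an unadjusted P under 0.05 1 of the 41 passed, where 13% of all genes did. Without overlap, Atr lay lower (10.2% of all genes) and Tdg higher (14.2%) in LGR5+ cells. Tdg, the gene with the small unadjusted P, had 13.8, 12.1 and 11.6 CPM in LGR5+ and 8.05, 9.65 and 2.86 CPM in LGR5- cells, and its log2 difference was 0.86 (95% interval 0.14 to 1.58, adjusted P = 0.37). The other differences lay between -0.61 and 0.74, and 31 of 41 genes were fitted higher in LGR5+ cells. So were 67 of 110 repair genes outside the 41 and 23 of the 25 cell cycle genes. The median log2 difference was 0.12 over the 41 and 0.03 over all tested genes.

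The sample titles do not say that equal replicate numbers share a culture or batch. Same-numbered treated libraries of the 2 populations deviated together (correlations over genes 0.571, 0.217 and 0.304). A fit of those 6 libraries with the replicate as a block was therefore added after the data were seen. It called 451 genes in all but 0 of the 41 repair genes. The nearest were Atr (-0.66, SE 0.19, adjusted P = 0.0716), Atm (-0.63, SE 0.19, adjusted P = 0.0721) and Tdg (0.90, SE 0.27, adjusted P = 0.0744). Atr and Atm thus leaned to LGR5- and Tdg to LGR5+ cells, without passing.

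No difference in the response to 5-FU between the populations passed either. For the difference of responses, LGR5+ minus LGR5-, 0 of 41 genes passed by edgeR's test, 0 at an unadjusted P under 0.05 and 0 by DESeq2, against 0% and 1.57% of all genes. The fitted differences ran from -0.56 for Bard1 to 0.73 for Tdg, and the smallest unadjusted P was that of Msh3 (0.47, 95% interval -0.08 to 1.03, adjusted P = 1). The widths of the intervals differed between genes. For Exo1 the difference was 0.55 with an interval from -0.99 to 2.09. For Xpc the interval was narrow, from -0.51 to 0.40.

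Repair genes outside the 41 were counted in the same way. Of 112 further genes of these pathways, end joining and direct reversal, 110 were tested, and 24 fell and 4 rose in LGR5+ cells, where 6.37% of all genes fell and 9.66% rose. In LGR5- cells 27 fell and 5 rose, against 7.11% and 8.3% of all genes. Their medians, -0.29 and -0.33, were closer to the median of all genes than those of the 41. In LGR5+ and LGR5- cells 6 and 8 of 21 recombination genes fell, 4 and 5 of 12 Fanconi genes, 6 and 6 of 14 damage signaling genes, 2 and 2 of 5 mismatch repair genes, and 3 and 4 of 15 base excision repair genes. Of 11 bypass synthesis genes 2 and 1 fell, and of 11 end joining genes 1 and 1. None of 18 nucleotide excision repair and 3 direct reversal genes passed as lower in either population, although 1 and 3 of the 18 and 2 and 1 of the 3 were lower at an unadjusted P under 0.05. Polq, the polymerase of microhomology-mediated joining, fell by 1.54 (SE 0.35, adjusted P = 0.00733) in LGR5+ and 1.77 (SE 0.35, adjusted P = 0.00414) in LGR5- cells by edgeR's test. Ube2t, the conjugating enzyme for FANCD2, fell by 1.22 (SE 0.25, adjusted P = 0.00355) and 1.07 (SE 0.24, adjusted P = 0.0091), and Topbp1, an activator of ATR, by 1.17 (SE 0.25, adjusted P = 0.00542) and 1.17 (SE 0.25, adjusted P = 0.00603). Etaa1, which also activates ATR, fell in both (log2 fold change -1.03, SE 0.22, adjusted P = 0.00541 in LGR5+; log2 fold change -1.36, SE 0.22, adjusted P = 0.00113 in LGR5- cells). The smallest adjusted P of the further mismatch repair genes in LGR5+ cells was that of Pms1 (log2 fold change -0.88, SE 0.26, adjusted P = 0.033), that of bypass synthesis Poln (log2 fold change -1.49, SE 0.45, adjusted P = 0.0369) and that of end joining Rif1 (log2 fold change -0.70, SE 0.18, adjusted P = 0.0129), and all 3 fell. In LGR5- cells Pms1 and Rif1 passed as lower as well, and Poln did not (log2 fold change -0.84, SE 0.44, adjusted P = 0.222).

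The genes among these that rose, a smaller share than of all genes, were Ercc5, Nhej1, Mgmt and Polb in both populations and Paxx in LGR5- cells. Ercc5, the nuclease that cuts on the 3′ side of a bulky lesion, was 2.78-fold higher in LGR5+ (log2 fold change 1.48, SE 0.21, adjusted P = 0.000231) and 2.5-fold higher in LGR5- cells (log2 fold change 1.32, SE 0.21, adjusted P = 0.000727). The 2 nucleotide excision repair genes that passed among 21 tested, Xpc and Ercc5, both rose. That share was near the share of all genes that rose, 9.66% in LGR5+ and 8.3% in LGR5- cells. Nhej1, a ligation factor of end joining, rose in both populations as well (log2 fold change 0.81, SE 0.23, adjusted P = 0.0265 in LGR5+; log2 fold change 1.11, SE 0.23, adjusted P = 0.00516 in LGR5- cells). Mgmt, which removes alkyl groups from guanine, rose most of all repair genes tested, 3.13-fold in LGR5+ (log2 fold change 1.65, SE 0.22, adjusted P = 0.000158) and 4.58-fold in LGR5- cells (log2 fold change 2.20, SE 0.22, adjusted P = 3.3e-05). Polb, the gap-filling polymerase of base excision repair, rose (log2 fold change 0.74, SE 0.19, adjusted P = 0.0163 in LGR5+; log2 fold change 0.78, SE 0.19, adjusted P = 0.0129 in LGR5- cells), and Paxx, an end joining factor, rose in LGR5- cells (log2 fold change 0.66, SE 0.19, adjusted P = 0.0298). Polb and Paxx were named after their values were seen. Also in base excision repair, Tdp1, which clears blocked 3′ ends, fell (log2 fold change -1.11, SE 0.24, adjusted P = 0.00511 in LGR5+; log2 fold change -1.18, SE 0.24, adjusted P = 0.00424 in LGR5- cells), and Parp2, the partner of PARP1, fell too (log2 fold change -0.76, SE 0.16, adjusted P = 0.0055 in LGR5+; log2 fold change -0.87, SE 0.16, adjusted P = 0.00284 in LGR5- cells).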

How the data were processed

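Per the labels and the study's methods, cDNA of sorted cells came from a SMARTer kit and was read from both ends over 150 bp, and the authors deposited whole-number read counts for 47069 Ensembl genes in 12 libraries, without normalization. The submitters' processing notes name HISAT2, HISAT, TopHat2, HTSeq and the build mm8, which the gene identifiers postdate. Roles, versions, annotation and strand setting are not given in the sources used here. The GENCODE M21 annotation on GRCm38 gave symbols to 46488 identifiers and none to 581, and its coordinates do not describe the authors' counting.

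The counts were scaled by TMM, and genes were filtered with filterByExpr and fitted over all 12 libraries with edgeR 4.0.16 (glmQLFit, glmQLFTest; limma 3.58.1, R 4.3.3). A gene passed at a Benjamini-Hochberg adjusted P under 0.05 over 16157 genes. Intervals are log2 fold change ± 1.96 SE, an approximation that is narrower than edgeR's test allows with few libraries. Replicates of a gene varied by 26.6% (biological coefficient of variation, common dispersion 0.0708). DESeq2 1.42.0, other scalings and filters, libraries left out and a replicate block were alternatives. Members and lists were chosen with earlier results of these data known. All 41 genes were accounted for, with 12 values for those that passed and for the uracil glycosylases, and 12 values of Brca2 and Polk were added after their values were seen. Of 112 other repair genes 1 symbol, Hrob, was not matched. Of these, up to 3 called genes per pathway with the smallest adjusted P in LGR5+ cells were named, with Polb and Paxx added.

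Same-numbered libraries deviated together between the treated populations (correlations over genes 0.571, 0.217 and 0.304), but not in every pair between untreated populations or between treated and untreated cells. Every pair of libraries differed by more than sampling noise (chi-square over its degrees of freedom 4.42 to 239).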

Additional observations from a re-analysis of the deposited data

How the results depend on the processing

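The direction of every change that passed held under all alternatives. The 18 repair genes called in LGR5+ cells and the 21 in LGR5- cells became 3 to 22 and 7 to 25 with 1 library left out, and 10 (8 lower, 2 higher) in LGR5- cells without both LGR5- replicate 3 libraries. Without both treated replicate 1 libraries, a choice made after seeing the data, they became 23 and 25. DESeq2 called 23 in each population. Other scalings, filters and a fit of only the compared libraries gave 17 to 25 in LGR5+ and 14 to 21 in LGR5- cells. The replicate block raised the counts to 24 and 25, but same-numbered treated and untreated libraries did not deviate together in every pair. It changed no call in the population comparisons, where 0 of 41 passed under each setting. With 1 library left out, the recombination median ranged in LGR5+ cells from -1.99 to -1.17 and in LGR5- cells from -1.79 to -1.09, the Fanconi median from -1.98 to -1.12 and -2.08 to -1.34, the LGR5- kinase median from -0.95 to -0.41, the LGR5- base excision median from -1.06 to -0.48 and the LGR5- nucleotide excision median from 0.11 to 0.55. Without both treated replicate 1 libraries the recombination medians were -1.99 and -1.79 and the Fanconi medians -1.99 and -2.08. Without both LGR5- replicate 3 libraries the LGR5- kinase median was -0.40 and the nucleotide excision median 0.06. The cause of these shifts was not tested. All genes called ranged from 1373 to 4448 in LGR5+ and from 1282 to 3418 in LGR5- cells. The number of genes tested also changed with the filter and the libraries used. Genes near 0.366 to 10 CPM, such as Fanci, Fancb, Ung and Polh, rest on the fewest reads, down to 5 in a library.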
